A study of Coturnix japonica with 4 samples.

Results

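Integrins, laminins and the proteins that tie them together were examined in embryonic skin of Japanese quail (Coturnix japonica) at embryonic day 7. The genes were taken by symbol. They are all integrin alpha chains (ITGA followed by a digit or by V, E, L, M or X), integrin beta chains numbered with 1 digit, laminin alpha, beta and gamma chains, NID1, NID2, NPNT, FRAS1, FREM1 and FREM2. The rule found 35 of the 12383 genes in the deposited table, made up of 18 integrin chains, 11 laminin chains and 6 other matrix genes. The groups are skin of the black stripes and skin of the yellow stripes, dissected from untreated embryos of fertilized eggs. Each stripe had 2 libraries and each library held tissue of 4 embryos, so a library is a pool and not an animal. Strain, sex and genotype were not given in the sources used here. For each stripe the table holds 1 RPKM value (reads per kilobase of transcript, scaled to mapped reads), and no spread between libraries can be computed from it.

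Integrins are transmembrane receptors made of 1 alpha and 1 beta chain, which bind matrix proteins outside the cell and the actin or keratin skeleton inside it. Laminins are cross-shaped trimers of an alpha, a beta and a gamma chain. They assemble into the sheet of the basement membrane, where nidogens link them to the type IV collagen network. In embryonic skin this membrane separates the epidermis from the dermis, surrounds vessels and nerves, and is a substrate along which neural crest cells, the source of melanocytes, migrate.

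The labels were checked against skin and pigment markers. The keratins KRT5 and KRT14 were not analysed here. Of 11 epidermal markers with a row in the table, all had a mean of 1 RPKM or more, as did all 14 dermal fibroblast markers, with COL1A2 at 539 RPKM in black-labelled skin, against 529 RPKM in yellow-labelled skin. Melanocyte markers ran against the stripe names. The 6 markers summed to 164 RPKM in black-labelled skin, against 558 RPKM in yellow-labelled skin, and TYR, the first enzyme of melanin synthesis, had 4.68 RPKM in black-labelled skin, against 57.3 RPKM in yellow-labelled skin. The 2 values are therefore called black-labelled and yellow-labelled, and every direction below follows the column names. Whether the columns or the stripe names were exchanged was not tested, and an exchange would turn every direction given here. Because whole skin was sampled, fewer cells of a type and less RNA per cell cannot be told apart.

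No integrin, laminin or linked gene with a mean of 1 RPKM or more had a ratio between the stripes above 1.71-fold. Of the 35 genes, 0 reached a q-value (false discovery rate) under 0.05 in the authors' deposited table, beside 0.331% of the 10569 genes with a p under 1. At a looser q under 0.1 the count was again 0, beside 0.539% of genes. Without adjustment, 3 genes reached a p under 0.05 in the authors' deposited table. LAMC3, ITGA4 and ITGA8 were these genes, all with their higher value in black-labelled skin. They are 3 of the 32 members with a p under 1, or 9.38%, where the background was 3.46% of all such genes, and 2.07% for genes higher in the black-labelled value. No test of this share is given. None of the 35 genes passed the adjusted threshold, and the differences below are given as values.

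**Figure D1:**
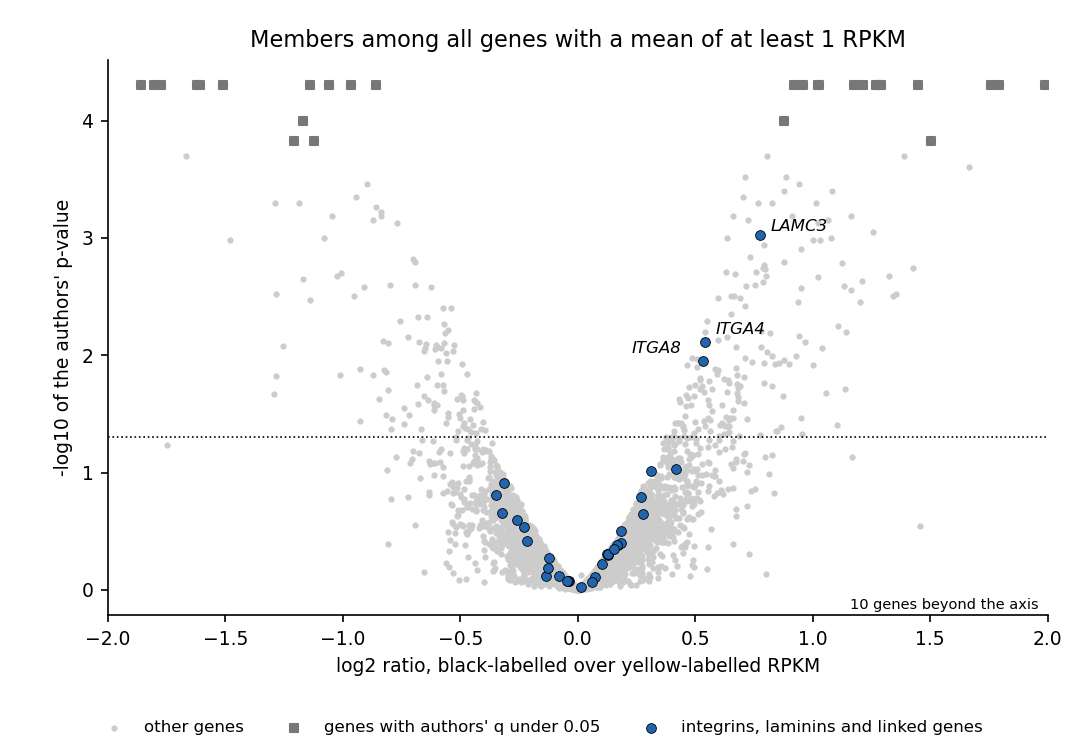
Log2 ratio of black-labelled over yellow-labelled RPKM (x axis) against −log10 of the authors' unadjusted p-value (y axis) for genes whose mean was 1 RPKM or more. Blue points are the integrins, laminins and linked genes, grey squares are genes with the authors' q-value under 0.05, and the dotted line marks a p of 0.05. LAMC3, ITGA4 and ITGA8 are the 3 blue points above the line, and no blue point is among the squares. The 10 genes beyond a log2 ratio of 2 either way are not drawn.

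Of the 35 genes, 32 had a mean of 1 RPKM or more and are called measured. The others were lower and include ITGB2 and ITGA2B. Among measured genes, 19 were higher and 13 lower in the black-labelled value, and their median log2 ratio of black-labelled over yellow-labelled was 0.09, beside -0.00 over all 10061 measured genes. Over all measured genes 49.7% were higher in the black-labelled value. A log2 ratio of at least 0.32 in size was reached by 6 measured members, 4 higher and 2 lower in the black-labelled value. This is 18.8% of the measured members, where the background was 9.23% of all measured genes, 5.31% higher and 3.93% lower in the black-labelled value. LAMC3 was the 1 member at least 1.5-fold apart, a size reached by 2.86% of measured genes, 1.78% in its direction. The receptors and the matrix genes differed in their medians, which were -0.01 over 16 measured integrins and 0.14 over 16 measured laminins and other matrix genes. No test was made of that contrast.

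The authors' p-values set the scale on which these differences can be read. The smallest ratio of a measured gene with p under 0.05 in the authors' deposited table was 1.32-fold, and for q under 0.05 it was 1.82-fold. A ratio of 1.5-fold or more was found in 288 measured genes, and 12.2% of them reached that q. Of the 32 measured members, 14 had a ratio under 1.1-fold and 12 a larger ratio whose log2 was still under 0.32 in size. The quartiles of the log2 ratio over all measured genes were -0.08 and 0.08. Of the measured members, 16 lay above the upper quartile, 10 below the lower one and 6 between them. A p that misses the threshold does not show that the stripes had equal levels.

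The integrin alpha chains, which set what a receptor binds, had 9 measured members that summed to 152 RPKM in black-labelled skin, against 140.0 RPKM in yellow-labelled skin. Among these 9 chains no single one dominated. ITGA3, a laminin receptor chain of epithelia, was the most abundant, with 33.1 RPKM in black-labelled skin, against 29.4 RPKM in yellow-labelled skin (log2 ratio 0.17). ITGA6, the laminin receptor chain of hemidesmosomes and of many stem cells, had 21.7 RPKM in black-labelled skin, against 26.9 RPKM in yellow-labelled skin (log2 ratio -0.31, p = 0.122 in the authors' deposited table). The 2 laminin-binding chains thus lay on opposite sides of a ratio of 1, and their sum was 54.7 RPKM in black-labelled skin, against 56.3 RPKM in yellow-labelled skin.

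**Figure D2:**
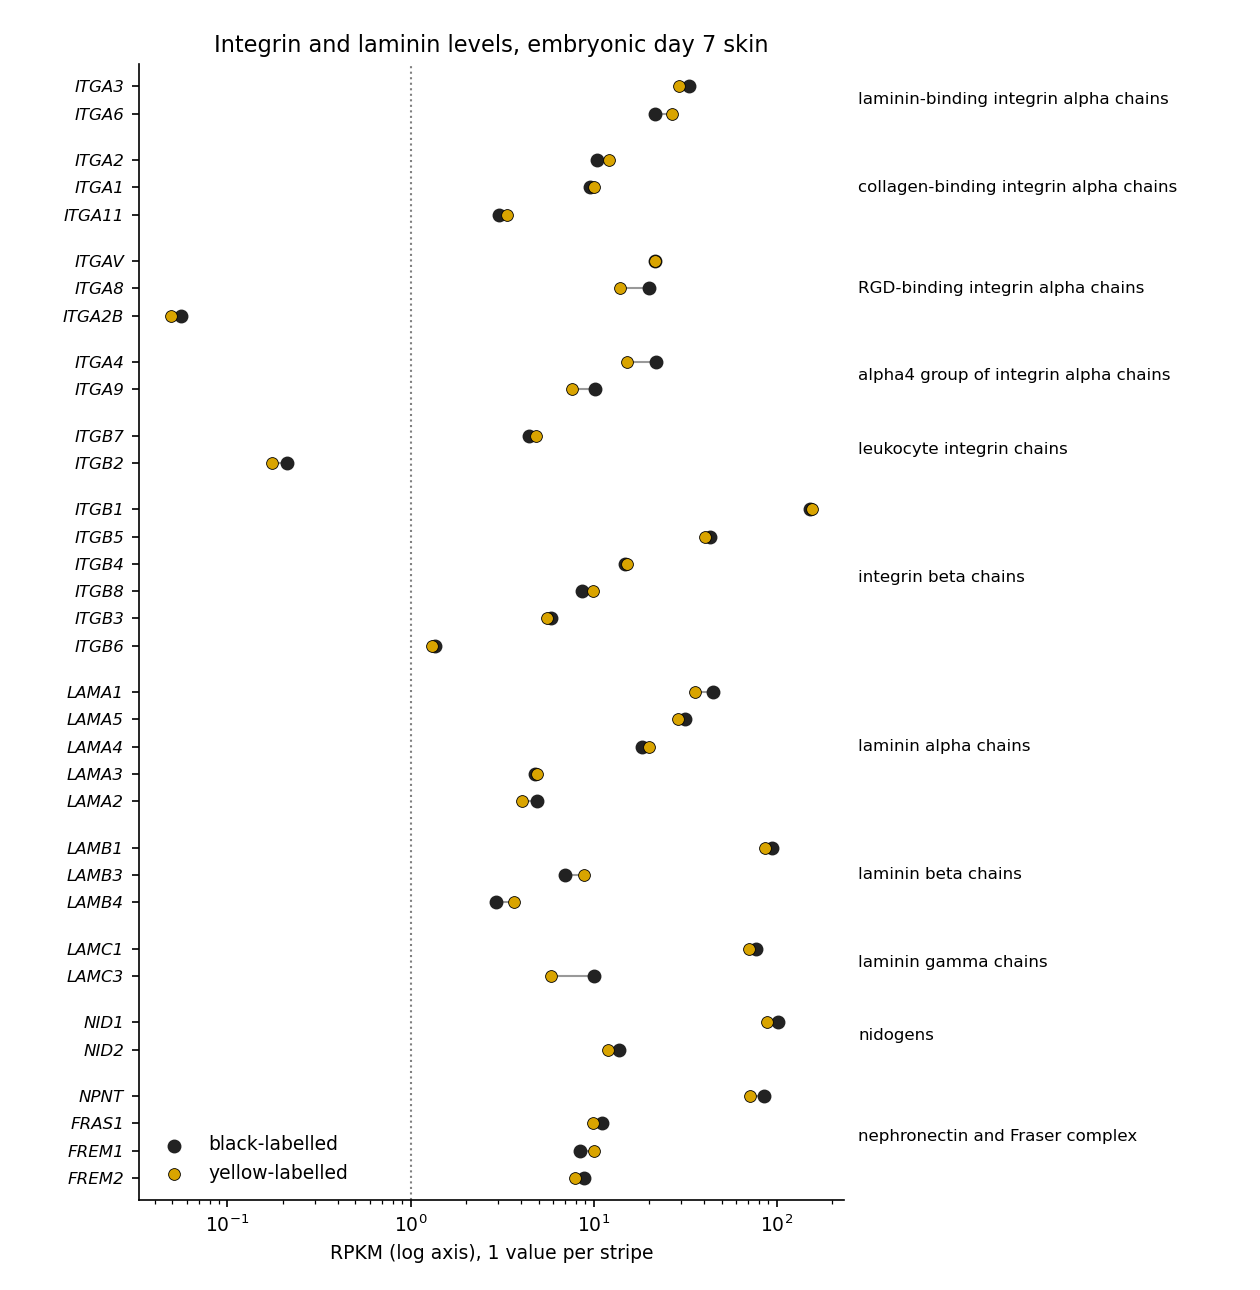
RPKM of 34 of the 35 genes on a log axis, grouped by chain class, with the black-labelled value as a black point and the yellow-labelled value as a yellow point. Each stripe has 1 value, so no error is drawn, and the dotted line marks 1 RPKM. Pairs of points lie close together for most genes, and the widest gap among genes above 1 RPKM is that of LAMC3, at 10.0 RPKM black-labelled and 5.86 RPKM yellow-labelled.

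ITGA4 and ITGA9 form a pair of related alpha chains that between them bind fibronectin, VCAM1, tenascin and osteopontin. ITGA4, which is known on neural crest cells, leukocytes and muscle precursors, had 22.0 RPKM in black-labelled skin, against 15.1 RPKM in yellow-labelled skin. This was a 1.45-fold ratio (log2 ratio 0.54), with p = 0.00775 and q = 0.551 in the authors' deposited table. Of all measured genes, 2.04% had a higher log2 ratio. ITGA9 had 10.1 RPKM in black-labelled skin, against 7.59 RPKM in yellow-labelled skin, a 1.34-fold ratio (log2 ratio 0.42), with p = 0.0939 in the authors' deposited table. The sum of the pair was 1.42-fold higher in black-labelled skin, with 32.1 RPKM against 22.7 RPKM in yellow-labelled skin. Leukocytes also carry ITGA4, and 4 of 5 blood and immune markers were higher in the black-labelled value, as were 49.7% of all measured genes. The lowest p of these 5 markers was 0.434 in the authors' deposited table. All 5 together summed to 22.1 RPKM in black-labelled skin, against 20.5 RPKM in yellow-labelled skin. Of the skeletal muscle markers, 3 of 8 were measured, all 3 higher in the black-labelled value, and they summed to 32.3 RPKM in black-labelled skin, against 16.4 RPKM in yellow-labelled skin. Most of that sum was TNNC1, a troponin of slow and cardiac muscle, with 25.1 RPKM in black-labelled skin, against 13.0 RPKM in yellow-labelled skin. DES, desmin, which smooth muscle also makes, had 2.94 RPKM in black-labelled skin, against 1.36 RPKM in yellow-labelled skin. PAX7, the marker of muscle precursors among them and also a neural crest gene, had 4.25 RPKM in black-labelled skin, against 2.01 RPKM in yellow-labelled skin. The muscle regulators MYOD1, MYF5 and MYOG were all under 0.2 RPKM in both. In the authors' deposited table, p was 0.0004 for PAX7, 0.0027 for TNNC1 and 0.00565 for DES. The q-values of these genes were 0.0853, 0.267 and 0.463, so none was under 0.05. Melanocytes come from the neural crest, and all 6 melanocyte markers were lower in the black-labelled value. Of these, 5 had q under 0.05 in the authors' deposited table. MITF, the remaining one, had 21.9 RPKM in black-labelled skin, against 26.0 RPKM in yellow-labelled skin (log2 ratio -0.25). The p of MITF was 0.221 in the authors' deposited table. Of 6 Schwann cell markers 3 were measured, 1 higher and 2 lower in the black-labelled value. These 3 summed to 39.3 RPKM in black-labelled skin, against 46.4 RPKM in yellow-labelled skin. The part of any of these cell types in the ITGA4 values was not tested.

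The ligands of this pair did not share 1 direction. FN1, fibronectin, had 180.1 RPKM in black-labelled skin, against 172 RPKM in yellow-labelled skin. TNC, tenascin C, had 24.3 RPKM in black-labelled skin, against 36.2 RPKM in yellow-labelled skin (log2 ratio -0.57), with p = 0.00395 and q = 0.347 in the authors' deposited table. SPP1, osteopontin, had 4.25 RPKM in black-labelled skin, against 4.14 RPKM in yellow-labelled skin, and VCAM1 had 0.15 RPKM in black-labelled skin, against 0.10 RPKM in yellow-labelled skin. TNC thus had its higher value in the stripe where ITGA9 had its lower one. The p of ITGA9 was 0.0939 in the authors' deposited table.

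ITGA8 belongs to the chains that recognise the RGD tripeptide, and its best known ligand is nephronectin. ITGA8 had 20.1 RPKM in black-labelled skin, against 13.9 RPKM in yellow-labelled skin, a 1.44-fold ratio (log2 ratio 0.53), with p = 0.0113 and q = 0.672 in the authors' deposited table. NPNT, nephronectin, was among the most abundant members, with 85.5 RPKM in black-labelled skin, against 71.0 RPKM in yellow-labelled skin. Its ratio was 1.20-fold (log2 ratio 0.27), with p = 0.161 in the authors' deposited table. ITGA8 and NPNT were thus both higher in the black-labelled value. Transcripts of NPNT exceeded those of ITGA8 by 4.24-fold in black-labelled skin, against 5.09-fold in yellow-labelled skin. Integrin ligands outside the members, given below, did not share 1 direction, with 4 of 11 measured genes higher and 7 lower in the black-labelled value. Among all measured genes 49.7% were higher. Which of those ligands bind ITGA8 was not examined. ITGAV, the RGD-binding chain of receptors for vitronectin and latent TGF-beta, had close values, with 21.7 RPKM in black-labelled skin, against 21.5 RPKM in yellow-labelled skin (log2 ratio 0.01). ITGA2B, the platelet and thrombocyte chain, had 0.06 RPKM in black-labelled skin, against 0.05 RPKM in yellow-labelled skin, too low for any comparison.

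The collagen-binding alpha chains were all slightly lower in the black-labelled value. ITGA2, a collagen receptor of epithelia and platelets, had 10.4 RPKM in black-labelled skin, against 12.2 RPKM in yellow-labelled skin (log2 ratio -0.23). ITGA1, the collagen receptor of mesenchyme and smooth muscle, had 9.51 RPKM in black-labelled skin, against 10.0 RPKM in yellow-labelled skin (log2 ratio -0.08). Of 7 smooth muscle and pericyte markers 6 were measured, 4 of them lower and 2 higher in the black-labelled value, with a median log2 ratio of -0.04. MYH11, smooth muscle myosin, fell to 2.00 RPKM in black-labelled skin, against 6.97 RPKM in yellow-labelled skin (log2 ratio -1.80, q = 0.0177 in the authors' deposited table). ACTA2, smooth muscle actin, had 19.1 RPKM in black-labelled skin, against 28.6 RPKM in yellow-labelled skin (log2 ratio -0.58, with p = 0.00865 and q = 0.575 in the authors' deposited table). TAGLN and RGS5 had log2 ratios of -0.03 and -0.05, and the higher 2 were PDGFRB at 0.15 and DES at 1.11. The part of smooth muscle in the ITGA1 values was not tested. ITGA11, a receptor for fibrillar collagen on fibroblasts, had 3.06 RPKM in black-labelled skin, against 3.35 RPKM in yellow-labelled skin (log2 ratio -0.13). Their p-values in the authors' deposited table were between 0.293 and 0.761. The related chain ITGA10 and the laminin-binding chain ITGA7 were not analysed here.

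**Figure D3:**
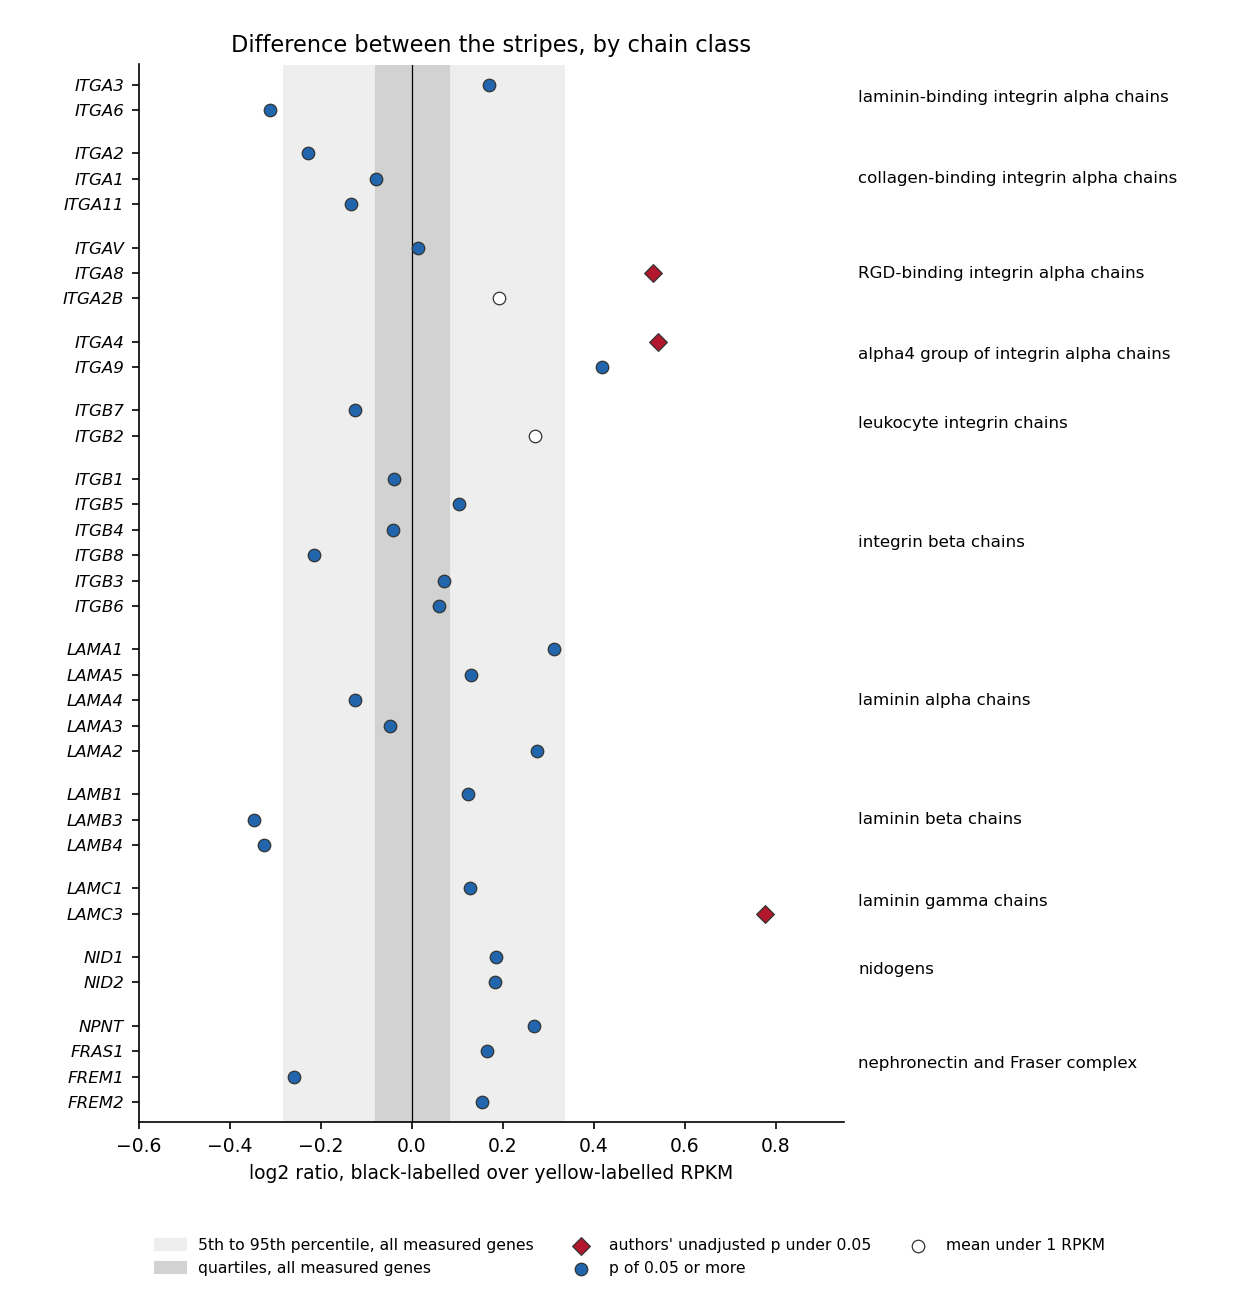
Log2 ratio of black-labelled over yellow-labelled RPKM for 34 of the 35 genes, grouped by chain class. The dark band spans the quartiles of all 10061 measured genes and the light band their 5th to 95th percentiles (-0.28 to 0.34). Red diamonds mark the 3 genes with the authors' unadjusted p under 0.05, and open circles genes with a mean under 1 RPKM. ITGA4, ITGA8, ITGA9 and LAMC3 lie to the right of the light band, and ITGA6, LAMB3 and LAMB4 lie to its left among measured genes.

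The integrin beta chains, which carry the signal to the cytoskeleton, had small ratios. Among 7 measured beta chains 0 reached a log2 ratio of 0.32 in size, and their log2 ratios lay between -0.21 and 0.10. ITGB1, the shared partner of many alpha chains, was the most abundant of all members, with 152 RPKM in black-labelled skin, against 156 RPKM in yellow-labelled skin. It stood above 97.3% of all genes in mean RPKM. The 9 measured alpha chains, all of which can pair with ITGB1, summed to 0.999 times its RPKM in black-labelled skin, against 0.90 times in yellow-labelled skin. Some of them also pair with other beta chains, so the ratio is of transcripts and does not count receptors. The alpha chains ITGA5, ITGA7 and ITGA10 were not analysed here, so the sum leaves them out.

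The other beta chains covered a wide range of levels. ITGB5, a partner of ITGAV in vitronectin receptors, had 43.3 RPKM in black-labelled skin, against 40.3 RPKM in yellow-labelled skin. ITGB4, the partner of ITGA6 in hemidesmosomes, had 14.7 RPKM in black-labelled skin, against 15.2 RPKM in yellow-labelled skin, so that ITGA6 exceeded it by 1.47-fold in black-labelled skin, against 1.77-fold in yellow-labelled skin. ITGB8, which with ITGAV activates latent TGF-beta, had 8.59 RPKM in black-labelled skin, against 9.97 RPKM in yellow-labelled skin, the lowest log2 ratio of the class at -0.21. ITGB3, the beta chain of a vitronectin receptor, had 5.87 RPKM in black-labelled skin, against 5.58 RPKM in yellow-labelled skin. ITGB6, an epithelial partner of ITGAV, was the lowest measured member, with 1.36 RPKM in black-labelled skin, against 1.30 RPKM in yellow-labelled skin. ITGB7, a leukocyte chain that pairs with ITGA4, had 4.46 RPKM in black-labelled skin, against 4.86 RPKM in yellow-labelled skin (log2 ratio -0.12), the direction opposite to that of ITGA4. ITGB2, the beta chain of the other leukocyte integrins, had 0.21 RPKM in black-labelled skin, against 0.18 RPKM in yellow-labelled skin, while PTPRC, a general leukocyte marker, had 1.57 RPKM in black-labelled skin, against 1.65 RPKM in yellow-labelled skin.

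Laminin chains were of similar summed abundance in the 3 classes. The 5 alpha chains summed to 104 RPKM in black-labelled skin, against 93.6 RPKM in yellow-labelled skin. The 3 beta chains summed to 104 RPKM in black-labelled skin, against 98.9 RPKM in yellow-labelled skin, and the gamma chains LAMC1 and LAMC3 to 86.7 RPKM in black-labelled skin, against 76.0 RPKM in yellow-labelled skin. LAMB2 was not analysed here, so the beta sum is that of LAMB1, LAMB3 and LAMB4. LAMB1, the main beta chain of embryonic basement membranes, made up 90.5% of its class in black-labelled skin, against 87.3% in yellow-labelled skin. LAMC1, the gamma chain of most laminins, made up 88.4% of the sum with LAMC3 in black-labelled skin, against 92.3% in yellow-labelled skin.

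**Figure D4:**
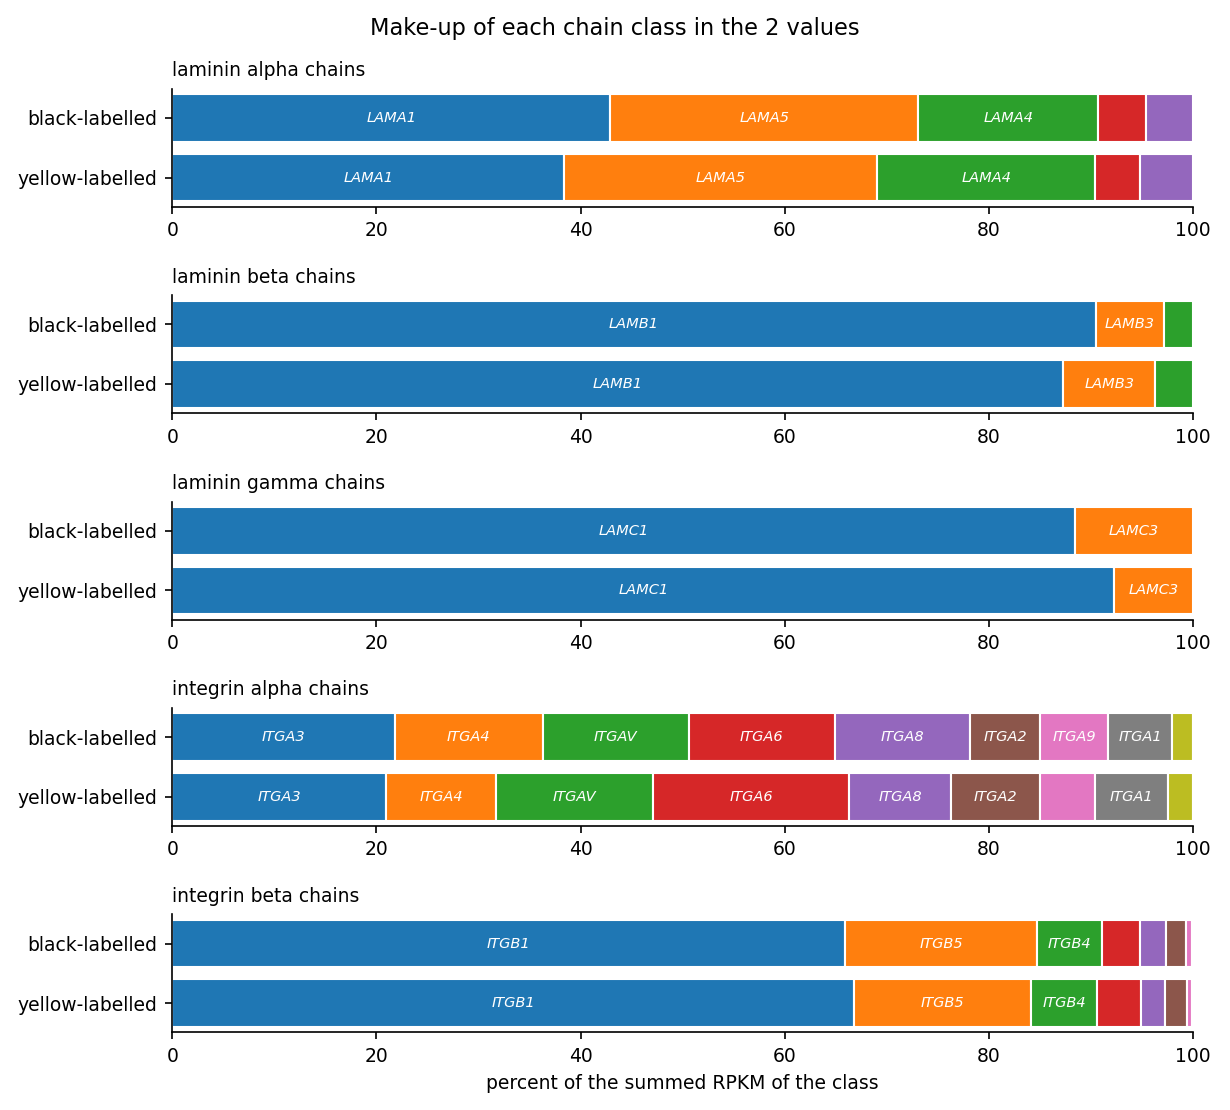
Share of each chain in the summed RPKM of its class (x axis, percent), with the black-labelled value above the yellow-labelled value for each of 5 classes. Each colour is 1 chain, in the same order in both bars, and names are written where a segment is wide enough. LAMB1, LAMC1 and ITGB1 fill most of their classes, whereas the alpha chains are divided among several genes, and LAMC3 takes 11.6% of its sum with LAMC1 in black-labelled skin, against 7.71% in yellow-labelled skin.

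LAMC3 had the largest ratio of all measured members. LAMC3, a gamma chain known from mammalian brain, retina and nerve basement membranes, had 10.0 RPKM in black-labelled skin, against 5.86 RPKM in yellow-labelled skin. This was a 1.71-fold ratio (log2 ratio 0.78), with p = 0.00095 and q = 0.145 in the authors' deposited table. Its p was the 72nd smallest of 10569, and 0.924% of measured genes had a higher log2 ratio. The more abundant LAMC1 had 76.6 RPKM in black-labelled skin, against 70.2 RPKM in yellow-labelled skin (log2 ratio 0.13), so LAMC1 exceeded LAMC3 by 7.64-fold in black-labelled skin, against 12.0-fold in yellow-labelled skin. Of 5 neuron markers, 4 were lower in the black-labelled value and TUBB3 was higher, with 10.4 RPKM in black-labelled skin, against 5.99 RPKM in yellow-labelled skin. GAP43 had 2.79 RPKM in black-labelled skin, against 4.99 RPKM in yellow-labelled skin (log2 ratio -0.84). ELAVL4 had 4.07 RPKM in black-labelled skin, against 6.41 RPKM in yellow-labelled skin (log2 ratio -0.65), and STMN2 and SNAP25, both under 1 RPKM, had log2 ratios of -0.58. The 3 measured neuron markers each had p under 0.05 before adjustment and 0 had q under 0.05 in the authors' deposited table. They summed to 17.3 RPKM in black-labelled skin, against 17.4 RPKM in yellow-labelled skin. The 3 measured Schwann cell markers, 1 higher and 2 lower in the black-labelled value, had a median log2 ratio of -0.17. The part of neurons and Schwann cells in the LAMC3 values was not tested.

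Among laminin alpha chains the early embryonic chain LAMA1 was the most abundant. LAMA1 had 44.7 RPKM in black-labelled skin, against 36.0 RPKM in yellow-labelled skin, a 1.24-fold ratio (log2 ratio 0.31), with p = 0.0976 in the authors' deposited table. LAMA5, the widespread alpha chain of epithelial basement membranes, had 31.4 RPKM in black-labelled skin, against 28.7 RPKM in yellow-labelled skin (log2 ratio 0.13). LAMA4, the alpha chain of vessel walls, had 18.4 RPKM in black-labelled skin, against 20.0 RPKM in yellow-labelled skin (log2 ratio -0.12). Endothelial markers, the 7 with a row all measured, had a median log2 ratio of -0.08, with 3 higher and 4 lower in the black-labelled value. Smooth muscle and pericyte markers, of the vessel wall among other sites, did not share 1 direction. MYH11 and ACTA2 had lower values in black-labelled skin, as given above, and of these only MYH11 had q under 0.05 in the authors' deposited table. TAGLN and RGS5 had small log2 ratios of -0.03 and -0.05. PDGFRB (log2 ratio 0.15) and DES (log2 ratio 1.11), which is also on the skeletal muscle list, lay the other way. Over the 6 measured markers of this list the median was -0.04. LAMA2, the alpha chain of muscle and peripheral nerve, had 4.92 RPKM in black-labelled skin, against 4.06 RPKM in yellow-labelled skin (log2 ratio 0.28). Its p was 0.228 in the authors' deposited table. Of the muscle markers given above, TNNC1, PAX7 and DES were higher in black-labelled skin, and MYOD1, MYF5 and MYOG were low in both. The 3 measured Schwann cell markers, 1 higher and 2 lower in the black-labelled value, had a median log2 ratio of -0.17. The 3 measured neuron markers were also 1 higher and 2 lower, with a median of -0.65. The part of vessel, muscle and nerve cells in these values was not tested.

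LAMA3 and LAMB3, laminin chains of the hemidesmosome, were low at this stage. LAMA3 had close values, with 4.76 RPKM in black-labelled skin, against 4.91 RPKM in yellow-labelled skin (log2 ratio -0.05). Its p was 0.836 in the authors' deposited table. LAMB3 had 6.99 RPKM in black-labelled skin, against 8.89 RPKM in yellow-labelled skin, a 1.27-fold ratio (log2 ratio -0.35), with p = 0.157 in the authors' deposited table. Epidermal markers lay mostly in the same direction, with 9 of 11 lower in the black-labelled value, as were 5049 of all 10061 measured genes. The median log2 ratio of these markers was -0.15, and they summed to 466 RPKM in black-labelled skin, against 516 RPKM in yellow-labelled skin. KRT18, a keratin of simple epithelium, had the largest ratio of these markers and lay the other way, with 28.5 RPKM in black-labelled skin, against 18.0 RPKM in yellow-labelled skin (p = 0.41 in the authors' deposited table). TP63, the regulator of stratified epithelium, had 37.6 RPKM in black-labelled skin, against 41.8 RPKM in yellow-labelled skin. Members linked to epithelia did not all share the direction of LAMB3. ITGA3, LAMA5, FRAS1, FREM2 and ITGB6 had their higher values in black-labelled skin, whereas LAMA3, ITGA6, ITGA2 and ITGB4 had their lower values there. The log2 ratios of ITGB6, LAMA3 and ITGB4 were small, at 0.06, -0.05 and -0.04. None of these members had p under 0.05 in the authors' deposited table. The part of the epidermal share in the values of LAMB3, ITGA6 and ITGA2 was not tested, and 0 of these epidermal markers had p under 0.05 in the authors' deposited table.

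LAMB1 had 94.1 RPKM in black-labelled skin, against 86.3 RPKM in yellow-labelled skin (log2 ratio 0.12), close to the ratio of LAMC1. LAMB4, a less studied beta chain, had 2.92 RPKM in black-labelled skin, against 3.66 RPKM in yellow-labelled skin (log2 ratio -0.32). LAMB1 and LAMB4 are direct neighbours among the protein-coding genes of Coturnix japonica 2.1, and they had their higher values in different stripes. Only their order was examined, not their strands or any overlap. The strand setting of the counting was not given in the sources used here, so reads of any gene and of an antisense transcript cannot be told apart.

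Both nidogens, which bridge laminin and type IV collagen, were higher in the black-labelled value by the same proportion. NID1 was the most abundant member after ITGB1, with 101 RPKM in black-labelled skin, against 88.8 RPKM in yellow-labelled skin (log2 ratio 0.18). NID2 had 13.7 RPKM in black-labelled skin, against 12.0 RPKM in yellow-labelled skin (log2 ratio 0.18), and NID1 exceeded NID2 by 7.39-fold in black-labelled skin, against 7.38-fold in yellow-labelled skin. Their p-values in the authors' deposited table were 0.314 and 0.4.

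The Fraser complex of FRAS1, FREM1 and FREM2 anchors the epidermal basement membrane to the dermis of the embryo, and its loss causes skin blisters before birth in mice. FRAS1 had 11.1 RPKM in black-labelled skin, against 9.89 RPKM in yellow-labelled skin (log2 ratio 0.17). FREM2, which with FRAS1 is made by epithelial cells in mice, had 8.83 RPKM in black-labelled skin, against 7.94 RPKM in yellow-labelled skin (log2 ratio 0.15). FREM1, the member made by dermal cells in mice, had 8.44 RPKM in black-labelled skin, against 10.1 RPKM in yellow-labelled skin (log2 ratio -0.26). FREM1 thus lay opposite to the other members of the complex, with p = 0.254 in the authors' deposited table, while p was 0.415 for FRAS1 and 0.451 for FREM2.

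Lists of further genes of integrin linkage and basement membranes held 58 symbols, 2 genes under both an old and a new name, and 49 had a row. Of these, 0 reached a q under 0.05 in the authors' deposited table, and SMOC2 and TNC were the 2 with p under 0.05 before adjustment. They are 4.35% of the 46 with p under 1, near the background of 3.46% of all such genes. Other basement membrane genes had the highest median of these lists, with a log2 ratio of 0.24 over 14 measured genes. Of these 14, 11 were higher and 3 lower in the black-labelled value, where 49.7% of all measured genes were higher. No test was made of this list. SMOC2, a matricellular protein of basement membranes, had 69.6 RPKM in black-labelled skin, against 47.6 RPKM in yellow-labelled skin (log2 ratio 0.55), with p = 0.00515 and q = 0.427 in the authors' deposited table. Among 6 type IV collagen chains 4 were measured, and COL4A3 and COL4A4 were under 0.1 RPKM in both stripes. COL4A1 had a log2 ratio of 0.31 and COL4A2 of 0.38, against -0.11 for COL4A5 and -0.10 for COL4A6, whose protein forms the epithelial type of network. The most abundant genes of this list were COL18A1, with 72.9 RPKM in black-labelled skin, against 57.2 RPKM in yellow-labelled skin, COL4A5 with 58.7 RPKM in black-labelled skin, against 63.4 RPKM in yellow-labelled skin, and SMOC2.

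Inside the cell the genes on the integrin linker list, which also held the adaptor and signalling genes PTK2, BCAR1, ITGB1BP1 and KRIT1, differed little. Their median log2 ratio was -0.04 over 18 measured genes, with 0 at p under 0.05 in the authors' deposited table. Of these 18, 5 were higher and 13 lower in the black-labelled value, where 49.7% of all measured genes were higher. No test was made of this count. PARVB, FERMT2 and VCL, the most abundant linkers, had log2 ratios of 0.13, -0.01 and -0.10. The largest ratio among linkers was that of LIMS1, an adaptor that binds ILK, with 39.2 RPKM in black-labelled skin, against 29.7 RPKM in yellow-labelled skin (p = 0.0531 in the authors' deposited table). In the hemidesmosome list 3 genes had a value, PLEC was not analysed here, and log2 ratios lay between -0.02 and 0.08. COL17A1 had 55.2 RPKM in black-labelled skin, against 53.1 RPKM in yellow-labelled skin, DST had 35.5 RPKM in black-labelled skin, against 33.6 RPKM in yellow-labelled skin, and CD151 had 40.6 RPKM in black-labelled skin, against 41.3 RPKM in yellow-labelled skin. Integrin ligands outside the members had a median log2 ratio of -0.09 over 11 measured genes. Beside the same share of 49.7%, 4 of these ligands were higher and 7 lower in the black-labelled value, again without a test. POSTN, periostin, the most abundant of them after FN1, had 81.7 RPKM in black-labelled skin, against 65.9 RPKM in yellow-labelled skin, and TNC came next.

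**Figure D5:**
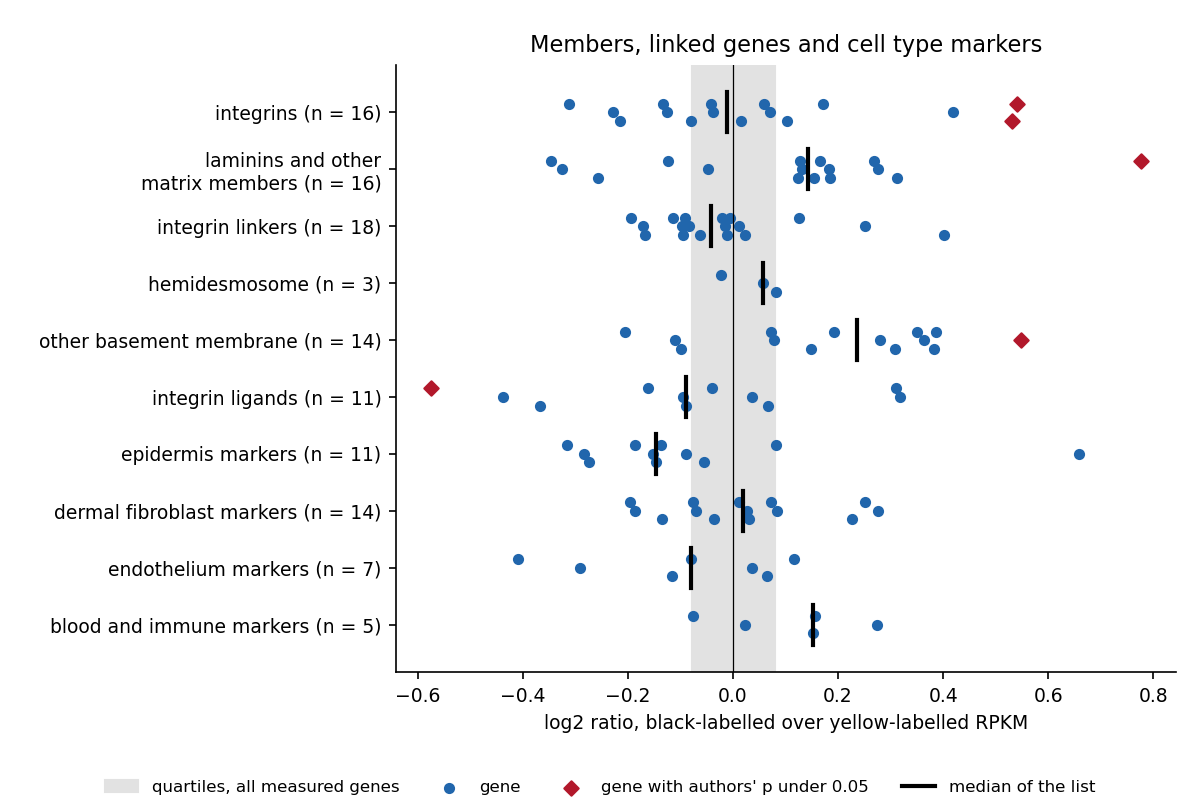
Log2 ratio of black-labelled over yellow-labelled RPKM (x axis) for measured integrins, laminins and other matrix members, linked genes and cell type markers, 1 point per gene. Vertical bars are list medians, the grey band spans the quartiles of all measured genes, and red diamonds mark genes with the authors' unadjusted p under 0.05. Medians lie at -0.01 for integrins, 0.14 for laminins and other matrix members, 0.24 for other basement membrane genes and -0.15 for epidermal markers.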

How the data were processed

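Skin RNA of the black and the yellow stripes was sequenced on an Illumina instrument from 4 libraries, per the labels. The RPKM values were computed by the authors, with 1 value per stripe, and the way the 2 libraries were merged was not given in the sources used here. TopHat2 2.1.1, an aligner, and Cufflinks 2.2, a quantifier, are named per the submitters' processing notes. Build, annotation and strand setting were not given in the sources used here, and depth is unknown. The p-values and q-values (false discovery rates), and log2 ratios of black over yellow, are the authors' deposited values, written by a QIAGEN program per the file headers. Of 12419 rows, 11 with an ID turned into a date number and 25 of repeated transfer RNAs were left out, which left 12383 genes.

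Log2 ratios were computed without a pseudocount and lay within 0.001 of the authors' for measured members. No test was made of 1 value per stripe, and a gene counted as different at the authors' q under 0.05. Genes whose p was under 1 counted as tested. Gene symbols were matched to RefSeq for Coturnix japonica 2.1, in which all 35 members were found. The values of 1 member and of some markers are not reported here. Members with a mean of at least 1 RPKM are given with both values. From the linked lists, genes with p under 0.05 and the 3 most abundant per list are named, and further ones were picked with their values known. The members and lists were chosen with earlier results of these data known. Alternatives covered thresholds, floors, a pseudocount of 1 RPKM and 2 scalings. Python 3.11.15 with pandas 2.3.3 was used, and the adjustment of p-values was tested on simulated data.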

Additional observations from a re-analysis of the deposited data

How the results depend on the processing

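No member was called at the authors' q under 0.05, under 0.1, or when p-values were adjusted again over measured genes, and an unadjusted p under 0.05 gave 3 members. For the linked lists that count was 2, against 0 at q under 0.05 or under 0.1. The median log2 ratio of members, 0.09, was between 0.08 and 0.13 with floors of 0.1 and 5 RPKM, a pseudocount of 1 RPKM, or scaling to the same median or upper quartile. The count of 6 members with a log2 ratio of at least 0.32 in size was between 4 and 7 under these settings and 1 at 1.5-fold. The 4 members higher in the black-labelled value stayed 4 in number under the same floors, pseudocount and scalings, and were 1 at 1.5-fold. The 2 lower members were 1 at a floor of 5 RPKM, 0 with the pseudocount, which shrinks ratios of low genes, and 0 at 1.5-fold. With the pseudocount and both scalings 19 members were higher in the black-labelled value, and 0 single members reversed. No paired analysis was possible because the table gives 1 value per stripe, and for the same reason no library could be left out. Read depth is unknown, so no limit by depth can be given for single genes.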
